A study of Mus musculus with 4 samples.

Results

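The genes described here are 10 of the 56748 in the count table: the smooth muscle actins Acta2 and Actg2, the myosin chains Myh9 and Myl9, the tropomyosins Tpm1 and Tpm2, and the actin-binding proteins Cnn1, Cnn2, Tagln and Cald1. They were taken by gene symbol, as contractile proteins of smooth muscle and mesenchymal cells, most of them known targets of serum response factor (SRF), and each matched 1 row. Mouse HT22 cells, an immortalised line derived from the hippocampus, were compared in 2 forms: a line that overexpresses the homeodomain transcription factor MEIS2 (oeMEIS2, 2 libraries) and a control line (Ctrl, 2 libraries). No other genotype, treatment or time is named in the labels, which also do not say what drives MEIS2, whether a line is 1 clone, or whether each library is a culture of its own. The p-values therefore rest on the spread among these libraries, which may be only technical, and an effect of MEIS2 cannot be told apart from any other difference between the lines. Reads from poly(A) RNA were counted for each gene.

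Smooth muscle contracts when myosin, whose regulatory light chain has been phosphorylated, pulls on actin filaments that carry tropomyosin, caldesmon and calponin. Fibroblasts and many cultured cells build stress fibres from non-muscle forms of the same proteins. Many of these genes share a switch: when actin is drawn into filaments, the cofactors MRTF-A and MRTF-B are released from monomeric actin, enter the nucleus and act with SRF on promoters that hold a CArG box. Acta2, Tagln, Cnn1 and Myh11 are standard markers of smooth muscle, whereas Myh9 and Cnn2 are made by many cell types.

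A CArG box is CC, then 6 bases of A or T, then GG, and reads the same pattern on both strands. RefSeq promoter windows (GRCm38.p6), each from 250 bases before to 50 bases after a gene's start, were found for 8 of the 10 genes, in 9 windows because Cald1 has more than 1 start. An exact CArG box stood in the windows of 2 of the genes, Cnn2 and Myl9, and a match with at most 1 mismatch in those of 5, which adds Acta2, Tpm1 and Cald1. Over all 32851 mouse windows of this length, 1.63% held an exact box and 21.1% a match with at most 1 mismatch. The windows of Cnn1, Tpm2, Myh9 and the second start of Cald1 held neither, which says only that these letters are not in these windows. Shown are Acta2 and Cnn2, which had the lowest p-values of the set, Myh9, which stood on the other side, and Myl9, which has an exact box and almost no reads. They are given 5′ to 3′ on the strand of the gene, from chr19:34255324-34255623 (minus strand), chr10:79988350-79988649 (plus), chr15:77842126-77842425 (minus) and chr2:156775214-156775513 (plus). Capitals mark matches with at most 1 mismatch, and a match is a description of the letters, not evidence that SRF binds.
Acta2: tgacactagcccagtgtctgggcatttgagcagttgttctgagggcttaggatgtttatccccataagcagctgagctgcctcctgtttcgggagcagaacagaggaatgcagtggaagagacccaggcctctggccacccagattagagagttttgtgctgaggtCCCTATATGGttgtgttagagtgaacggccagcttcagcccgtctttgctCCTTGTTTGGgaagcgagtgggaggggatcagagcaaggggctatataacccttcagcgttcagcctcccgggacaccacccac
Cnn2: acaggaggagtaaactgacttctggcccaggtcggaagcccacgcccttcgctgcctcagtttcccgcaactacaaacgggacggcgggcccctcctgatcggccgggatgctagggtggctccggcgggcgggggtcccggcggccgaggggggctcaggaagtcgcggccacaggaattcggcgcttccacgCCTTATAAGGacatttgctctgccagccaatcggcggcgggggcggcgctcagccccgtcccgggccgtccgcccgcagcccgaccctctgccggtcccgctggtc
Myh9: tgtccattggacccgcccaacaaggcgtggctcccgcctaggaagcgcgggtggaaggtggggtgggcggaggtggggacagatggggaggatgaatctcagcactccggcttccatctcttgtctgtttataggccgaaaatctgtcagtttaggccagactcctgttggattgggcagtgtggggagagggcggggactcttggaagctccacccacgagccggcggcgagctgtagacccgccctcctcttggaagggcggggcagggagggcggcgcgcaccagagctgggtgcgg
Myl9: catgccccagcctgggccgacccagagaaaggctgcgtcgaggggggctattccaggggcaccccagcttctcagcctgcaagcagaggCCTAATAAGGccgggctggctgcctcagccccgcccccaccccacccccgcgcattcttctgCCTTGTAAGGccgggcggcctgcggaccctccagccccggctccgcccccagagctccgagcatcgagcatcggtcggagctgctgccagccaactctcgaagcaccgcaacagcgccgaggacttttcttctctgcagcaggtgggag
The box of Cnn2 begins 56 bases before the start and that of Myl9 161 bases before it. The matches of Acta2 begin 84 and 34 bases before its start.

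Total counts ran from 15014017 to 16903967 per library, and 12802 genes had enough counts to be tested. Meis2 itself had 5182 and 5571 counts in oeMEIS2, against 245 and 319 in Ctrl, and was the only gene whose adjusted p by the quasi-likelihood test of edgeR was under 0.05, which is 0.00781% of the genes tested. Its log2 fold change was 4.22 (SE 0.34, adjusted p = 6.43e-05). The libraries of a line differed from each other by more than sampling noise, with a chi-square per degree of freedom of 87.3 in oeMEIS2 and 33.6 in Ctrl. Over the tested genes, which are no independent replicates, the log2 fold change between lines ran with gene length (Spearman correlation 0.488) and against GC content (-0.421). Of 9 neuronal marker genes, 4 (Rbfox3, Nefl, Snap25 and Stmn2) had 0 counts in all 4 libraries and Syt1 had 1 count in 1 library, while Tubb3, the neuronal tubulin, had the most on average, with 267 and 199 counts in oeMEIS2, against 340 and 263 counts in Ctrl. Map2, of neuronal dendrites, had 129 and 305 counts in oeMEIS2, against 102 and 117 counts in Ctrl. The summed level of the 9 was 27.1 and 31.1 CPM in oeMEIS2, against 31.3 and 25.3 CPM in Ctrl.

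Of the 10 contractile genes, 6 were expressed and 4 were at or near 0. The 4 genes that were barely detected are the smooth muscle forms Actg2, Tagln, Cnn1 and Myl9, none of which exceeded 6 counts in any library. Among the expressed genes, Acta2, Cnn2 and Tpm2 were lower in both oeMEIS2 libraries than in both controls, Myh9 was higher in both, and Tpm1 and Cald1 overlapped. None of the 6 passed the test (lowest adjusted p = 0.559, for Acta2). In the main edgeR fit, in DESeq2 and in limma-voom, 0 of the 6 had an unadjusted p under 0.05. In the main fit 1306 of all 12802 tested genes had one, so 0 of 6 does not set these genes apart. With group as the only term, 0 of the 6 passed an adjusted p of 0.05 in any of these tools. With the replicate number as a further term 1 of the 6 passed, where 1884 of the 12802 tested genes passed as higher and 913 as lower. With an offset for gene length and GC content as well, 3 of the 6 passed, where 1042 genes passed as higher and 1213 as lower. Both fits are given in the closing section. Lower levels with no overlap were found for 19.1% of all tested genes and higher levels with no overlap for 22.6%, so 3 and 1 of 6 are set against those shares, and with 6 genes no more can be read from them. The median log2 fold change of the 6 was -0.29, with 4 fitted lower and 2 higher. Over all tested genes the median was 0.01, with quartiles of -0.32 and 0.48. In such a bulk sample, fewer cells that make a transcript and less of it per cell cannot be told apart.

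**Figure D1:**
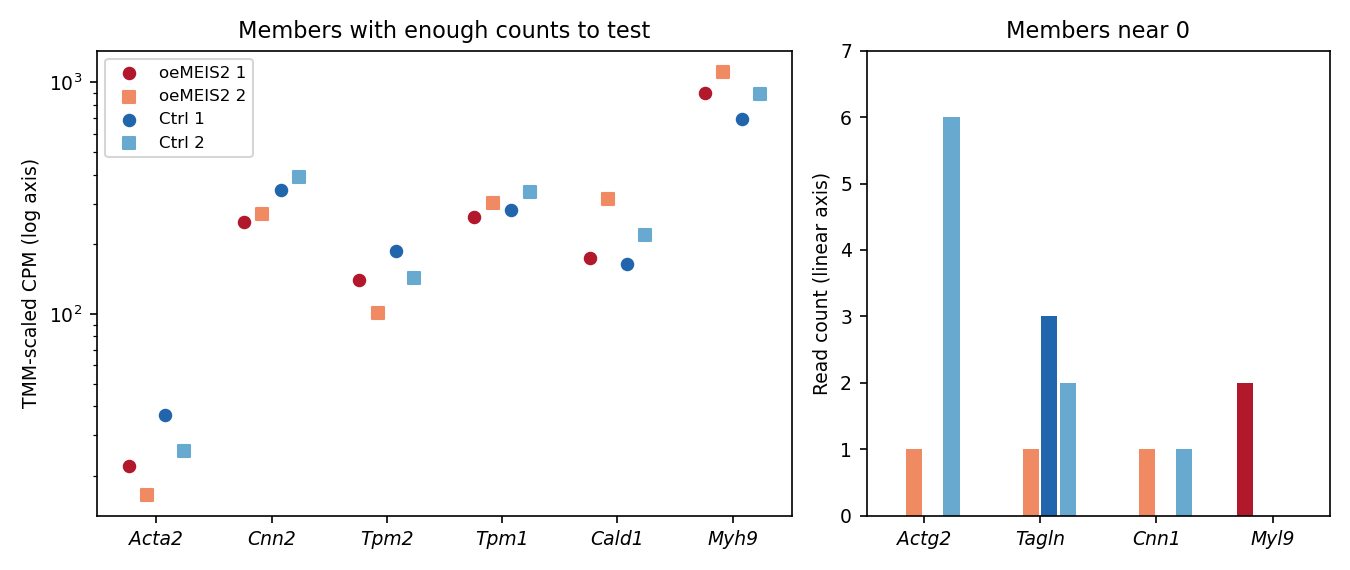
TMM-scaled CPM on a log axis for the 6 genes that could be tested (left) and read counts on a linear axis for the other 4 (right), with 1 point or bar per library, the oeMEIS2 libraries in red shades and Ctrl in blue. Both oeMEIS2 points lie below both Ctrl points for Acta2, Cnn2 and Tpm2 and above them for Myh9, and no bar on the right exceeds 6 reads.

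Acta2, the actin of vascular smooth muscle and of myofibroblasts, was expressed at a low level. It had 344 and 279 counts in oeMEIS2, against 564 and 418 counts in Ctrl, which is 22.02 and 16.62 CPM against 36.71 and 25.70 CPM after TMM scaling (CPM divides counts by the scaled library total). The mean level was 19.3 ± 3.82 CPM in oeMEIS2 and 31.2 ± 7.79 CPM in Ctrl (SD, n = 2 each). Both oeMEIS2 libraries were below both controls. On the log2 scale the line means differed by -0.68, more than the libraries of a line differed from each other (0.51 in Ctrl and 0.40 in oeMEIS2, by size). The fitted log2 fold change was -0.69 (SE 0.37, 95% interval -1.48 to 0.10, adjusted p = 0.559 by edgeR's quasi-likelihood test). Leaving out 1 library at a time moved it between -0.93 (without Ctrl replicate 2) and -0.41 (without Ctrl replicate 1). Acta2 (ENSMUSG00000035783) is at 34218490 to 34232990 on chromosome 19, minus strand. Gene positions are copied from the count table, and no source used here names their build.

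Actg2, the actin of visceral smooth muscle, had 0 and 1 counts in oeMEIS2, against 0 and 6 counts in Ctrl. Only Ctrl replicate 2 had more than 3 counts, the number used as a floor for detection, which was worth 0.179 to 0.195 CPM per library. Such floors cover counting error only. Of the striated muscle actins, Acta1 had 2 and 3 counts in oeMEIS2, against 0 in both Ctrl libraries, and Actc1 had 0 in all 4 libraries. Nearly all actin RNA came from the cytoplasmic forms. Per gene length, as TPM, which divides counts by gene length and then by their sum in the library, Actb had 3116 and 3000 TPM in oeMEIS2, against 2471 and 2791 TPM in Ctrl, and Actg1 had 2517 and 2249 TPM, against 2700 and 2487 TPM. Acta2 made up 0.5% and 0.516% of the actin TPM in oeMEIS2, against 0.775% and 0.614% in Ctrl. Neither cytoplasmic actin passed the test, with log2 fold changes in CPM of -0.06 (SE 0.34) for Actb and -0.41 (SE 0.35) for Actg1. TPM is not scaled by TMM, and the 2 measures place the lines differently for Actb. In CPM its lines overlapped, with 2956 and 2236 in oeMEIS2, against 2738 and 2685 in Ctrl. The transcripts of Acta2 and Actg2 match each other over 1143 bases at 84.2% identity, and no other gene's transcript matched any of the 10 genes at 90% identity over 150 bases or more and at least 50% of its length.

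Myh9, the heavy chain of non-muscle myosin IIA and the motor of stress fibres, had the most reads of the set. It had 14089 and 18648 counts in oeMEIS2, against 10701 and 14552 counts in Ctrl, or 902 and 1111 CPM against 697 and 895 CPM. The groups did not overlap, but the margin between oeMEIS2 replicate 1 and Ctrl replicate 2 was small. On the log2 scale the line means differed by 0.34, the replicates of oeMEIS2 by 0.30 and those of Ctrl by 0.36. The fitted log2 fold change was 0.34 (SE 0.33, 95% interval -0.36 to 1.04, adjusted p = 0.682), and ran from 0.15 without oeMEIS2 replicate 2 to 0.53 without Ctrl replicate 2. It reversed to -0.02 with the trend on length and GC content removed. Its gene model (ENSMUSG00000022443, chromosome 15, minus strand, 77644787 to 77726375) is 12928 bases long, the longest of the set.

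The other myosin heavy chains looked at stood below Myh9 per gene length in every library. Myh11, the heavy chain that defines differentiated smooth muscle, had 0 counts in both oeMEIS2 libraries, against 2 and 1 counts in Ctrl. Myh10, non-muscle myosin IIB, had 42.0 and 98.4 TPM in oeMEIS2, against 18.6 and 29.9 TPM in Ctrl, with a log2 fold change in CPM of 1.196 (SE 0.35, adjusted p = 0.277). Myh9 held 82.4% and 75.8% of the heavy chain TPM in oeMEIS2, against 87.4% and 86.5% in Ctrl, a difference in share that was not tested. Myl9, the regulatory light chain of smooth muscle, had 2 and 0 counts in oeMEIS2, against 0 counts in both Ctrl libraries, under the floor throughout. Its non-muscle relative Myl12a held 99.0% and 98.3% of the summed TPM of Myl9, Myl12a and Myl12b in oeMEIS2, against 98.1% and 98.7% in Ctrl. Its log2 fold change was -0.27 (SE 0.32, adjusted p = 0.733). Over 517 bases the Myl9 transcript is 85.7% identical to that of Myl12a and 86.5% to those of Myl12b and the gene model Gm49909. Gm49909, left out of that sum, had 95 and 45 counts in oeMEIS2, against 76 and 127 counts in Ctrl. No source used here says how reads that match several genes were treated.

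**Figure D2:**
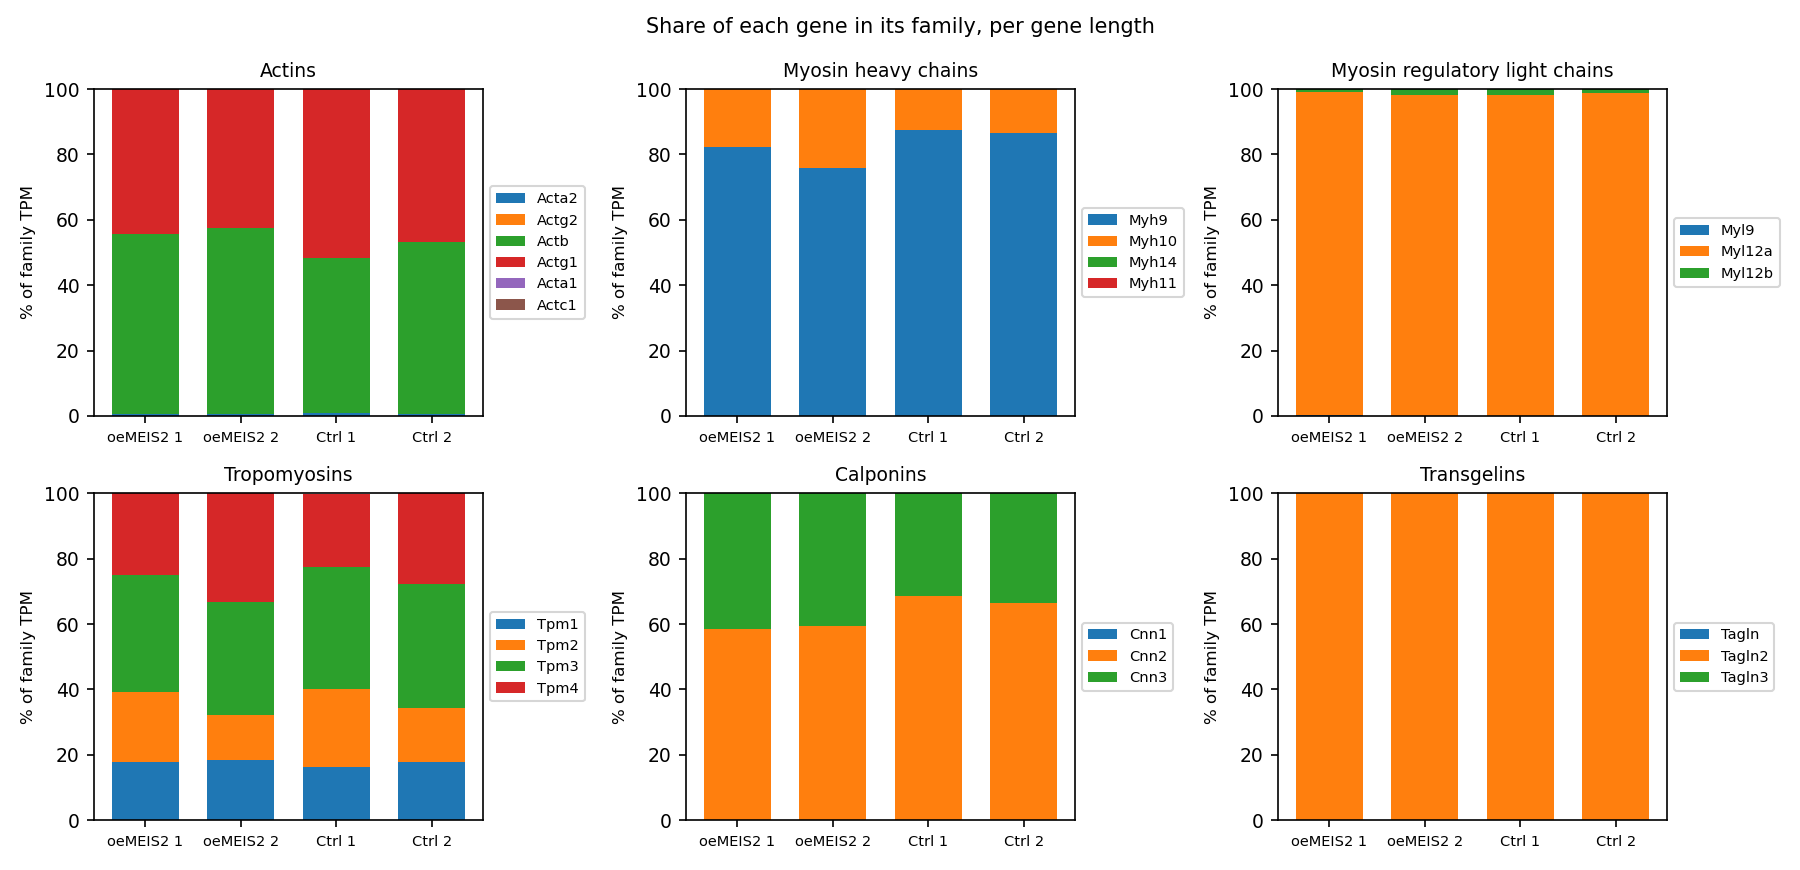
Share of each gene in the summed TPM of its family, in percent from 0 to 100, with 1 stacked bar per library (oeMEIS2 left, Ctrl right). Acta2 is a sliver of under 1% of actin in every library, Myl12a and Tagln2 fill their families, and Cnn2 takes 58.6% and 59.5% of the calponins in oeMEIS2, against 68.5% and 66.3% in Ctrl.

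Tropomyosins lie along the actin filament and gate its access to myosin. Tpm1 and Tpm2 both give muscle and non-muscle splice forms, which counts per gene do not separate. Tpm2 (ENSMUSG00000028464, chromosome 4, 43514711 to 43523765) had 2190 and 1696 counts in oeMEIS2, against 2873 and 2321 counts in Ctrl, or 140.2 and 101.0 CPM against 187.0 and 142.7 CPM. The groups did not overlap, by a margin of under 3 CPM between oeMEIS2 replicate 1 and Ctrl replicate 2. The log2 fold change was -0.45 (SE 0.31, 95% interval -1.12 to 0.22, adjusted p = 0.604), and ran from -0.71 without oeMEIS2 replicate 1 to -0.24 without Ctrl replicate 1. Tpm1 (ENSMUSG00000032366, chromosome 9, 66929872 to 66956688) had 4083 and 5076 counts in oeMEIS2, against 4338 and 5494 counts in Ctrl, or 261.3 and 302.3 CPM against 282.4 and 337.8 CPM. Here the lines overlapped, with replicate 2 above replicate 1 in each. The log2 fold change of Tpm1 was -0.14 (SE 0.30, 95% interval -0.79 to 0.51, adjusted p = 0.859), which library size scaling turned to 0.02.

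Of the other tropomyosins, Tpm3 had 229.5 and 312.1 TPM in oeMEIS2, against 241.2 and 312.3 TPM in Ctrl, and Tpm4 had 159.0 and 303.1 TPM, against 145.9 and 227.9 TPM. Both were above Tpm1 and Tpm2 per length in each library, except that Tpm4 was below Tpm2 in Ctrl replicate 1. Tpm2 held 21.3% and 13.8% of tropomyosin TPM in oeMEIS2, against 24.0% and 16.6% in Ctrl, so the replicates of a line were further apart than the lines.

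Calponins, transgelin and caldesmon bind along actin filaments and hold back or tune the pull of myosin. Cnn2, the calponin of non-muscle cells, had the highest level of the 10 per gene length. It had 3907 and 4554 counts in oeMEIS2, against 5281 and 6340 counts in Ctrl, or 250.1 and 271.2 CPM against 343.8 and 389.8 CPM. The mean was 260.6 ± 14.9 CPM in oeMEIS2 and 366.8 ± 32.6 CPM in Ctrl (SD, n = 2 each). Set against the gaps between replicates, this was the widest separation of the 6 after TMM scaling. The line means differed by -0.49 on the log2 scale, and the replicates by 0.12 in oeMEIS2 and 0.18 in Ctrl. The separation depends on the scaling. In TPM the lines overlapped, with 287.0 and 396.4 in oeMEIS2, against 337.8 and 441.3 in Ctrl. With library size alone the log2 fold change was -0.34 (SE 0.26). The fitted log2 fold change of -0.49 was not past the threshold (SE 0.30, 95% interval -1.14 to 0.15, adjusted p = 0.595). Leaving out 1 library at a time left it between -0.59 and -0.40, and removing the trend on length and GC content brought it to -0.21. Cnn2 (ENSMUSG00000004665) is at 79824418 to 79831896 on chromosome 10, plus strand. Its pseudogene Cnn2-ps, 89.3% identical over 927 bases, had at most 4 counts, and adding them left the log2 fold change at -0.49.

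Cnn1, the calponin of smooth muscle, had 0 and 1 counts in oeMEIS2, against 0 and 1 counts in Ctrl. Cnn3, the calponin known from brain and other tissues, had 202.9 and 269.5 TPM in oeMEIS2, against 155.6 and 224.5 TPM in Ctrl, with a log2 fold change in CPM of 0.02 (SE 0.30, adjusted p = 0.985). Cnn2 held 58.6% and 59.5% of calponin TPM in oeMEIS2, against 68.5% and 66.3% in Ctrl. The shares of the lines did not overlap, and their difference was not tested. Tagln, or SM22 alpha, an early marker of smooth muscle, had 0 and 1 counts in oeMEIS2, against 3 and 2 counts in Ctrl, at or under the floor in every library, so no fold is given. Its relative Tagln2 had 545.5 and 446.4 TPM in oeMEIS2, against 678.2 and 555.3 TPM in Ctrl. The log2 fold change of Tagln2 was -0.60 (SE 0.34, adjusted p = 0.578).

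Cald1, caldesmon, had 2736 and 5277 counts in oeMEIS2, against 2538 and 3565 counts in Ctrl, or 175.1 and 314.3 CPM against 165.2 and 219.2 CPM. The lines overlapped, and oeMEIS2 replicate 2 stood well above the other 3 libraries. The log2 fold change of 0.35 (SE 0.34, 95% interval -0.38 to 1.08, adjusted p = 0.686) turned to -0.17 without that library and was 0.72 without oeMEIS2 replicate 1. The gene (ENSMUSG00000029761, chromosome 6, 34575435 to 34752408) spans 12041 bases of gene model. Its counts join the long smooth muscle form and the short form of other cells.

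**Figure D3:**
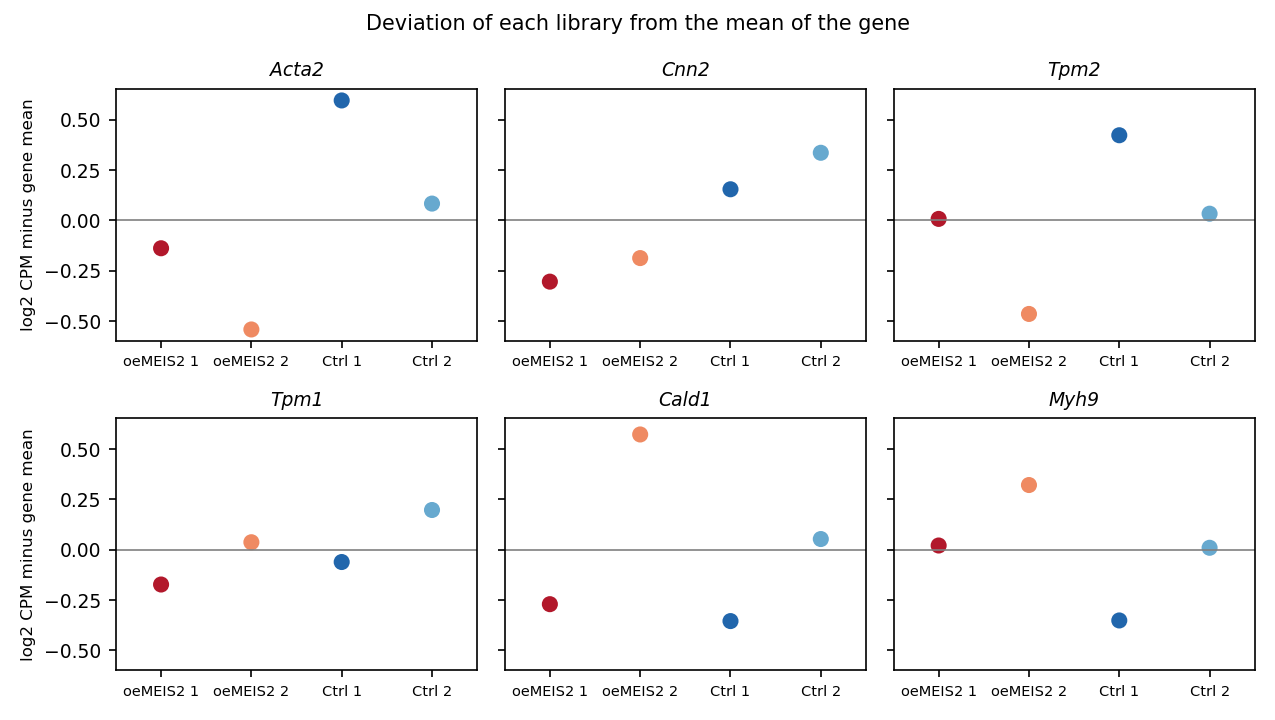
Log2 CPM of each library minus the mean of the gene over the 4 libraries, for the 6 tested genes, with oeMEIS2 libraries in red shades left of Ctrl in blue. Acta2 and Tpm2 are lowest in oeMEIS2 replicate 2 and highest in Ctrl replicate 1, Myh9 is the reverse, and in Cnn2 the lines are further apart than their replicates.

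Per gene length, the levels in TPM fell into an order that was mostly not sharp. Cnn2 had 287.0 and 396.4 TPM in oeMEIS2, against 337.8 and 441.3 TPM in Ctrl. Myh9 had 196.9 and 308.9 TPM in oeMEIS2, against 130.2 and 192.8 TPM in Ctrl, and Tpm2 had 136.1 and 124.8 TPM, against 155.4 and 136.6 TPM. Cnn2 was above Myh9 in every library, though their ranges over the libraries overlap. The ranges of Myh9 and Tpm2 overlap too, and their order changed between libraries. Tpm1 had 113.8 and 167.6 TPM in oeMEIS2, against 105.2 and 145.1 TPM in Ctrl, and overlapped Tpm2. Cald1 had 41.1 and 93.8 TPM in oeMEIS2, against 33.2 and 50.7 TPM in Ctrl, below Tpm1 in every library. Acta2, at 28.3 and 27.2 TPM in oeMEIS2 against 40.4 and 32.6 TPM in Ctrl, overlapped Cald1. The 4 barely detected genes were all under 0.7 TPM.

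The 6 expressed genes did not move as a block. Acta2 and Tpm2 were highest in Ctrl replicate 1, then Ctrl replicate 2, oeMEIS2 replicate 1 and oeMEIS2 replicate 2, an order shared by 12.4% of all tested genes. Myh9 had the reverse order, as did 15.8% of tested genes. Cnn2, Tpm1, Cald1 and Myh9 were higher in replicate 2 than in replicate 1 of both lines, and Acta2 and Tpm2 were lower. Direction also went with gene length: the 2 longest genes, Myh9 and Cald1, were fitted higher, and the 4 shorter ones, from 2196 to 6485 bases, lower. After a lowess trend on length and GC content was removed from every library, the log2 fold changes were -0.61 for Acta2, -0.42 for Tpm1, -0.36 for Cald1, -0.21 for Cnn2, -0.18 for Tpm2 and -0.02 for Myh9. All 6 were then negative, and 0 genes of the whole table passed (lowest adjusted p of the 6, 0.37, by edgeR's quasi-likelihood test). Meis2 itself no longer passed in that fit, so a lack of passing genes there says little about the 6. Of the genes outside the set, Mtfr1, Nos2, Narf, Coa7 and Cenpn were nearest to the median profile of the 6, with a root mean square distance of 0.0306 to 0.0349 over 4 libraries, out of 9528 genes compared. That profile is an average of genes that went opposite ways, and lay within 0.16 of 0 in each library.

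**Figure D4:**
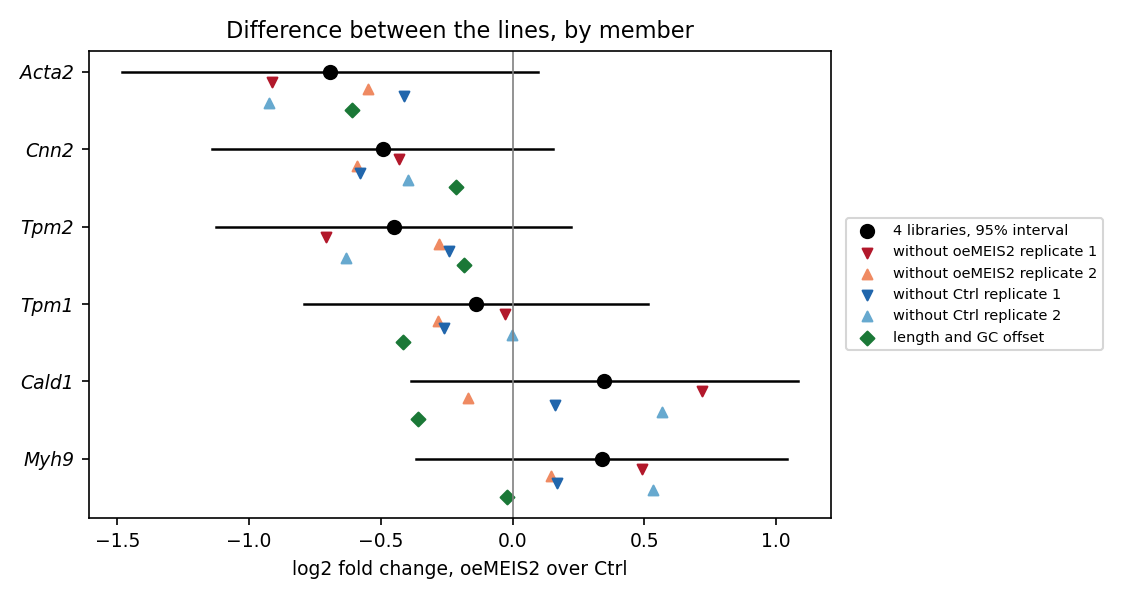
Log2 fold change of oeMEIS2 over Ctrl for each tested gene (black, with its 95% interval), after leaving out 1 library at a time (triangles) and with the trend on length and GC content removed (green). Every interval includes 0. Acta2, Cnn2, Tpm2 and Tpm1 stay on the negative side in all settings drawn, Tpm1 only just so without Ctrl replicate 2 (-0.003). Cald1 and Myh9 cross to negative values in green, and Cald1 also without oeMEIS2 replicate 2.

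Transcripts of SRF and of its general cofactors were detected. Srf and the cofactor genes Mrtfa and Mrtfb had at least 252 counts in each library, while Myocd, the cofactor restricted to smooth and cardiac muscle, had 0 counts in all but Ctrl replicate 1, where it had 5. Of 10 genes listed for SRF, its cofactors and their LIM partners, 9 were tested and 0 passed in either direction, with 5 fitted higher and a median log2 fold change of 0.01. The lowest p-value was that of Mrtfb, with 29.1 and 47.8 CPM in oeMEIS2, against 16.4 and 16.8 CPM in Ctrl (log2 fold change 1.21, SE 0.37, adjusted p = 0.279). Next were Scai, a repressor of MRTF (1.10, SE 0.57), and Csrp1, a LIM protein that is also the most abundant of the list per length (-0.58, SE 0.35). Scai rested on oeMEIS2 replicate 2, with 4.67 and 20.1 CPM in oeMEIS2, against 4.43 and 7.13 CPM in Ctrl.

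Of 32 other genes of actin, myosin and stress fibres, 29 were tested and 0 passed, with 11 fitted higher, 18 lower and a median of -0.12. Lpp, a focal adhesion protein, had 35.7 and 121.1 CPM in oeMEIS2, against 21.03 and 24.7 CPM in Ctrl (log2 fold change 1.78, SE 0.47, adjusted p = 0.256). Nexn, nexilin, rested on few reads, 11 and 48 counts in oeMEIS2 against 4 and 6 counts in Ctrl (2.47, SE 0.79, adjusted p = 0.279). Among 15 other SRF targets, all tested, 0 passed and 8 were fitted higher, with a median of 0.03. The lowest p-values there were those of Thbs1, a matrix protein (1.10, SE 0.35, adjusted p = 0.28), Ier2, an immediate early gene (-0.76, SE 0.38, adjusted p = 0.521), and Mcl1, which blocks apoptosis (0.57, SE 0.30, adjusted p = 0.547). Axl, a receptor kinase and the most abundant of them per length, stood at 0.30 (SE 0.32, adjusted p = 0.705).

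**Figure D5:**
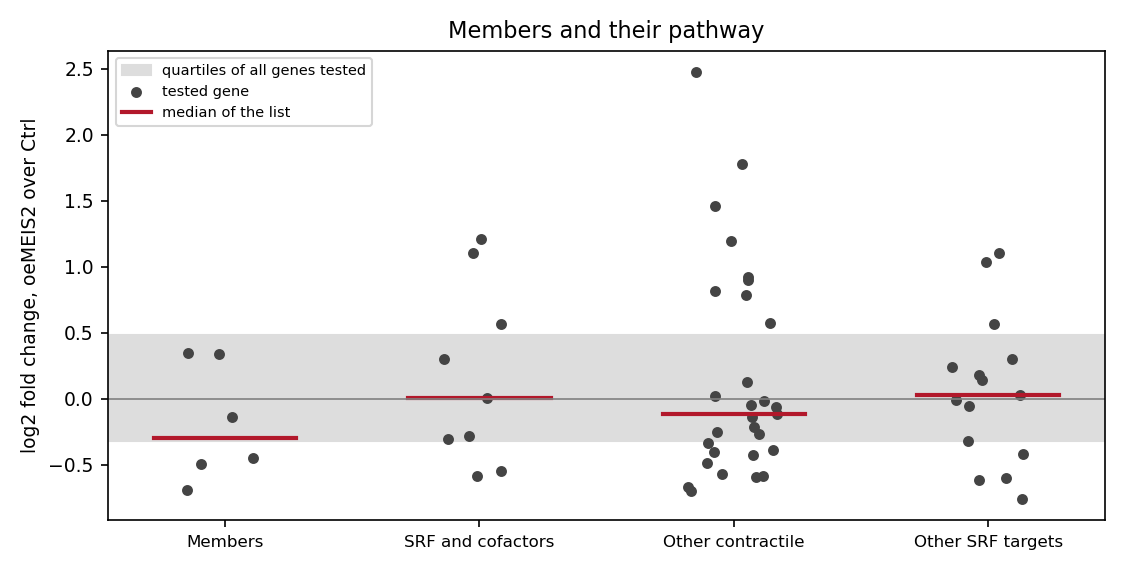
Log2 fold change of oeMEIS2 over Ctrl for each tested contractile gene and for the tested genes of 3 lists of the same pathway, with the median of each list in red and the quartiles of all tested genes (-0.32 to 0.48) shaded. The contractile genes lie between -0.69 and 0.35 and their median of -0.29 is the lowest of the 4, inside the shaded band.

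Markers of other cell types were read beside these levels. Of 8 smooth muscle markers outside the set, 4 (Myh11, Lmod1, Myocd and Pln) never exceeded 5 counts. The summed level of all 8 was 113.7 and 93.5 CPM in oeMEIS2, against 163.6 and 114.5 CPM in Ctrl, most of it from Smtn, smoothelin, with 95.8 and 75.8 CPM, against 142.1 and 98.8 CPM. The sum thus follows Smtn and not the list. Of the 4 that were tested, 2 were fitted lower, Smtn among them, and 2 higher, Mylk and Synpo2. Synpo2 rested on few reads, 11 and 12 counts in oeMEIS2 against 5 and 3 counts in Ctrl. The median log2 fold change of these 4 was -0.02, and 0 passed. Of 8 fibroblast markers, 5 were above 10 counts in at least 1 library. The 8 summed to 609 and 758 CPM in oeMEIS2, against 557 and 543 CPM in Ctrl. Col1a1 had the most reads, but its own log2 fold change was 0.09 (SE 0.31) and the lines overlapped. Of the 5 tested, 4 were fitted higher and 1 lower, with a median of 0.69, and 0 passed. Lum and Thy1 had 0 counts, and Dcn had 3 and 8 counts in oeMEIS2, against 5 and 10 counts in Ctrl. The 7 pericyte markers summed to 240.5 and 218.4 CPM in oeMEIS2, against 208.4 and 209.0 CPM in Ctrl, nearly all from Cspg4 and Pdgfrb, with Rgs5, Kcnj8 and Abcc9 at 0. Of 9 skeletal muscle markers, 5 had 0 counts throughout and Mylpf had the most, with 23 at its highest. Of 6 cardiac markers 5 had 0 counts, and Tnnt2 had 64 and 66 counts in oeMEIS2, against 87 and 84 counts in Ctrl. The markers of astrocytes (most counts: S100b), microglia (Aif1), endothelium (Pecam1) and epithelium (Krt8) reached at most 3, 6, 5 and 14 counts in a library. The part of the smooth muscle and fibroblast markers in the levels of the 6 genes was not tested.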

How the data were processed

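Per the labels' protocols, total RNA was extracted with TRIzol, poly(A) transcripts were captured on oligo(dT) beads and fragmented, and NEB libraries were made. The deposited table gives raw read counts, as whole numbers, for each gene in 1 column per library, with gene lengths per the file headers. DESeq2 is named, with no version or role, per the submitters' processing notes. No source used here names the aligner, counter, strand setting or build. GENCODE M21 (GRCm38) holds 52073 of the gene IDs but only 1472 at identical positions, so gene positions are printed without a build.

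The deposited counts went unchanged into edgeR 4.0.16 (R 4.3.3): filterByExpr, TMM, group as the only term, quasi-likelihood F test, Benjamini-Hochberg over 12802 genes, threshold 0.05. SE was taken as log2 fold change over the root of F. CPM is scaled by TMM, TPM uses the file's gene lengths and serves to compare genes, and per-library log2 CPM has a prior count of 2. For the tested genes the spread between libraries sets most of the SE, and total counts limit the genes near 0: the floor of 3 counts was worth 0.179 to 0.195 CPM. The fit was tested on simulated data. Within a line, chi-square per degree of freedom between libraries was 87.3 (oeMEIS2) and 33.6 (Ctrl), above sampling noise. The fit treated each library as 1 replicate, though the labels do not say whether it is a culture of its own. No column of sample values was unused.

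The genes, lists and tests were chosen with earlier results of these data known. Another list of genes that was drawn up is not reported here. Named are the 10 genes, Meis2, from each pathway list the 3 lowest p-values and the gene most abundant per length, from each marker list the gene with most counts, and the 5 genes nearest to the median profile. Genes named as absent or as relatives of a member were added after their values were seen. Relatives were sought in GENCODE M21 transcripts with BLAST+ 2.17.0. GC content, known for 98.9% of tested genes, is that of the longest transcript. Alternatives were DESeq2 size factors, library size alone, other count filters, DESeq2 1.42.0, limma-voom 3.58.1, the replicate number as a block, an offset for each library's lowess trend on length and GC content, and leaving out each library.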

Additional observations from a re-analysis of the deposited data

How the results depend on the processing

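Of 79 values of the 6 tested genes under alternatives, 70 kept their direction and their side of the threshold. Direction reversed for Myh9 (-0.0216 with the length and GC offset, -0.0135 with that offset and the replicate block), for Cald1 (-0.36 with the offset, with or without the block, and -0.169 without oeMEIS2 replicate 2; 0.718 at most, without oeMEIS2 replicate 1) and for Tpm1 (0.0179 with library size alone, which moved the median of all genes to 0.167). The cause was not tested.

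The replicate numbers are shared by the lines, but no label says that a number marks a common culture or day. Over genes, replicate 1 minus replicate 2 correlated between the lines (r = 0.529). With the replicate block, 1884 genes were higher and 913 lower, and Acta2 passed (log2 fold change -0.68, adjusted p = 0.0247). With block and offset the counts were 1042 and 1213, and Acta2 (-0.59, adjusted p = 0.0288), Tpm1 (-0.42, 0.0189) and Cald1 (-0.36, 0.0419) passed. The main fit, over 12802 genes, had 1 higher and 0 lower. Passing was thus common among all genes in both fits with the block, and does not by itself set the named genes apart. Whether the contractile genes passed there more often than other genes was not tested.

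Without the block, genes past the threshold numbered 268 higher and 3 lower with no filter on low counts, 69 and 1 with DESeq2, and 0 and 0 with the offset. Leaving out 1 library gave 1 to 1941 higher and 0 to 461 lower, the most without oeMEIS2 replicate 1, and 0 of the 6 genes passed in those fits. The median of the 6 genes was -0.35 with DESeq2 or its size factors, -0.14 with library size alone, and -0.28 to -0.20 without 1 library. The stress fibre list stood at 0.0307 with library size alone, -0.218 with the offset (with or without the block), and -0.188 to -0.0433 without 1 library. The list of other SRF targets stood at 0.24 with the offset (0.24 with the block too) and -0.11 to 0.20 without 1 library. The SRF cofactor list ranged from -0.209 to 0.0777 without 1 library. Summing near-identical copies was not run, since no copy met the set identity. Adding Cnn2-ps was chosen after seeing the data. Genes under 3 counts per library are below what this depth can compare.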
